A study of Mus musculus with 6 samples.

Results

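The Notch pathway was examined in smooth muscle cells of the mouse pulmonary artery (mPASMCs) after knockdown of the long noncoding RNA *Snhg18*. The 10 genes were chosen by symbol, namely the receptors *Notch1*, *Notch2* and *Notch3*, the ligands *Jag1* and *Jag2*, the DNA-binding factor *Rbpj*, and the target genes *Hes1*, *Hey1*, *Hey2* and *Heyl*. All 10 were found once each among the 55487 genes of the deposited count table. The cells were commercial mPASMCs transfected either with the control siRNA (si-NC) or with an siRNA against *Snhg18* (si-*Snhg18*), with 3 RNA sequencing libraries per group numbered 1 to 3. The labels give no further treatment, and the sources used here do not state the oxygen level, the time after transfection or whether libraries of a group came from separate cultures, so p-values measure the spread between these libraries, which may be technical.

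Notch receptors are single-pass membrane proteins that are switched on by Jagged or Delta-like ligands on a neighbouring cell. Binding lets ADAM proteases and then γ-secretase cut the receptor, and the freed intracellular domain enters the nucleus, where it joins RBPJ on DNA and turns it from a repressor into an activator of HES and HEY genes. In arterial smooth muscle, Notch3 is the receptor best known for shaping the contractile wall, and Notch signaling is known as a driver of smooth muscle growth in pulmonary hypertension.

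*Snhg18*, the targeted gene, was at 23.5, 22.4 and 22.1 CPM (read counts scaled to a common library size, here after TMM, a method that corrects library totals for differences in composition) in si-NC libraries 1 to 3 and at 10.6, 11.1 and 9.96 CPM in si-*Snhg18* libraries 1 to 3. The groups did not overlap, with a log2 difference of -1.10 (± 0.10 standard error, adjusted p = 0.00727 by the edgeR test described next, and 0.0659, 0.07 and 0.0703 without si-NC 1, si-NC 3 or si-*Snhg18* 3). Libraries held 18097718 to 25988746 counted reads, and 3 reads, the limit that a count of 0 allows, stood for 0.115 to 0.164 CPM depending on the library, which covers counting error only. Of 14531 genes with enough reads to be tested, 7.36% passed the quasi-likelihood test of edgeR at a Benjamini-Hochberg adjusted p under 0.05, with 3.65% higher and 3.71% lower in si-*Snhg18* cells (1.72% and 1.95% by at least 1.5-fold), and only such genes are said to have risen or fallen. These counts changed with the libraries used, as 0 genes passed without si-NC 1, si-NC 3 or si-*Snhg18* 3, when 2512, 2731 and 2464 had an unadjusted p under 0.05, while 158 passed without si-NC 2, 319 without si-*Snhg18* 1 and 3282 without si-*Snhg18* 2. With the replicate number as a block, which compares same-numbered libraries, 27.2% passed. Smooth muscle markers were present. The 7 listed genes summed to between 1750 and 1890 CPM in si-NC and between 1200 and 1850 CPM in si-*Snhg18* libraries. Most of it was *Acta2* and *Tagln*, at means of 866 and 684 CPM in si-NC cells. *Tagln* fell (log2 fold change -0.51), and 1 of the 7 passed without the block and 4 with it. With the block, *Tagln*, *Cnn1*, *Myh11* and *Des* were lower (*Des* at -1.76, edgeR quasi-likelihood adjusted p = 0.00154). *Acta2*, *Lmod1* and *Smtn* passed in neither fit. The 9 endothelial markers summed to between 13.8 and 15.5 CPM and between 14.5 and 17.4 CPM, most of it *Cdh5*, at 9.33 to 11.1 CPM in each library. *Pecam1* averaged 0.333 CPM in si-NC cells and *Tie1* had at most 1 read in any library. Of the 6 tested, 0 passed without the block and 1 with it. This was *Tek*, at 4 to 32 reads per library (-1.47, edgeR quasi-likelihood adjusted p = 0.0341 with the block). The other tested markers, *Kdr*, *Vwf*, *Esam*, *Cdh5* and *Erg*, had log2 fold changes of 1.04, 0.50, 0.44, 0.05 and -0.22 without the block. None of these passed in either fit. The 8 leukocyte markers summed to between 113 and 155 CPM in si-NC and between 72 and 111 CPM in si-*Snhg18* libraries, with *Adgre1* at 0 reads throughout. Of the 4 tested, 1 passed without the block and 2 with it. *Cd53* averaged 109 and 50.7 CPM and fell (log2 fold change -1.10, edgeR quasi-likelihood adjusted p = 0.00727). *Cd14* averaged 24.5 and 36.9 CPM and was called higher with the block and not without it (0.57, adjusted p = 0.00369 from that test with the block). The 6 epithelial markers summed to between 7.24 and 22.7 CPM and between 1.19 and 7.41 CPM, most of it *Krt18*, with *Sftpc* at 0 reads throughout. Only *Krt18* was tested, and it was called lower with the block and not without it (-1.94, edgeR quasi-likelihood adjusted p = 0.00216 with the block). The part of these marker lists in the results below was not tested.

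Of the 10 genes, 6 had enough reads to be tested. *Rbpj* and *Notch3* fell, each by more than 1.5-fold, *Jag1* was higher in each si-*Snhg18* library and passed the test with the block, and *Notch1*, *Notch2* and *Hes1* did not pass. *Jag2*, *Hey1*, *Hey2* and *Heyl* were at or near the detection limit. The DNA just upstream of the start sites of these 3 genes is shown so that their promoters can be compared. The sequences are the 250 bases before the RefSeq transcript start, on the gene's strand and 5′ to 3′, and capitals mark TGGGAA or its reverse complement, the core of the motif that RBPJ binds. The *Rbpj* start shown lies inside the annotated span of the gene, whose first exons begin further upstream.
*Rbpj*, plus strand, chr5:53590096-53590345 in GRCm38.p6: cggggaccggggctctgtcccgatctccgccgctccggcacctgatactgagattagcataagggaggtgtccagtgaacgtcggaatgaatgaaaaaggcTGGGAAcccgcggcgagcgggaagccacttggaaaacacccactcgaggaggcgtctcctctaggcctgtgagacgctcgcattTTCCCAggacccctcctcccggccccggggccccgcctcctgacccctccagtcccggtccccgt
*Notch3*, minus strand, chr17:32166891-32167140 in GRCm38.p6: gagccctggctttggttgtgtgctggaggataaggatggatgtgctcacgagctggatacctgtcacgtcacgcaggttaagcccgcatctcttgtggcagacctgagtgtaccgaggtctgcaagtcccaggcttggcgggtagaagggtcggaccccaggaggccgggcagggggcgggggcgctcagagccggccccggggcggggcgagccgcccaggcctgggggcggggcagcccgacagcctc
*Jag1*, minus strand, chr2:137116521-137116770 in GRCm38.p6: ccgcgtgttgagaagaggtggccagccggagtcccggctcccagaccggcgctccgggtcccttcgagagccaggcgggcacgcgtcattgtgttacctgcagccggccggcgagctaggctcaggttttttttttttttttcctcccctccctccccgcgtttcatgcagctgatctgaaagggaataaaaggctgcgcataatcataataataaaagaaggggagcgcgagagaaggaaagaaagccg

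Promoter windows of 300 bases, 250 before and 50 after the start, were found for 7 of the 10 genes, and *Hes1*, *Hey1* and *Heyl* were not matched. The TGGGAA core was searched on both strands and occurred in 25.6% of 32851 mouse promoter windows. The first *Rbpj* window held it at -149 on the plus strand and at -65 on the minus strand of the window, counted from the start site to the first base of the match. A second, overlapping *Rbpj* window, for a start site further downstream, held the latter match again at -205. Those of *Notch1*, *Notch2*, *Notch3*, *Jag1* and *Jag2* held no match. *Hey2*, a gene at the detection limit here, held the longer GTGGGAA at -207 and -4, on opposite strands. That motif contains TGGGAA and was in 6.38% of all windows. The E-box CACGTG, a site that HEY proteins can bind, was in 7.15% of all windows and in none of these. A match is a description of the letters in the window and does not show binding.

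*Rbpj* (ENSMUSG00000039191, chromosome 5, 53466152 to 53657362, plus strand of GRCm38) encodes the DNA-binding factor through which all 4 Notch receptors act. It was at 661, 588 and 689 CPM in si-NC libraries 1 to 3 and at 409, 315 and 383 CPM in si-*Snhg18* libraries 1 to 3. All of the si-NC values lay above all of the si-*Snhg18* values, so the groups did not overlap, as was true of 30.9% of tested genes in either direction. The mean fell from 646 ± 52.2 to 369 ± 48.7 CPM (SD, n = 3 each), which left 57.1%. The log2 fold change was -0.81 (± 0.12 standard error, edgeR quasi-likelihood adjusted p = 0.0172), and the adjusted p was 0.000571 with the block. The same-numbered libraries differed by -0.69, -0.90 and -0.85 on the log2 scale. The call depended on the libraries used. The adjusted p of the same test was 0.109, 0.0524 or 0.0998 when si-NC 1, 2 or 3 was left out and 0.0984 when si-*Snhg18* 3 was, with log2 fold changes between -0.89 and -0.71 over all 6 fits that left out 1 library.

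By mean CPM, *Rbpj* ranked 261 among the 14531 tested genes. The table gives it an exon length of 687 bases, which is the length of 1 short coding transcript, whereas its longest transcript in GENCODE M21 has 5485 bases. The deposited lengths of the other 9 genes were those of their longest transcripts. Per kilobase (RPKM), *Rbpj* in si-NC cells was thus at 941 ± 76 with the deposited length and at 118 ± 9.52 with the longest transcript (SD, n = 3), and it stood first among the 10 genes by either. The processed pseudogene *Rbpj-ps3*, whose reads could be confused with those of *Rbpj*, had between 89 and 174 reads and at most 1.59% of the *Rbpj* count in a library. How reads shared by the pair were counted is not given in the sources used here.

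**Figure D1:**
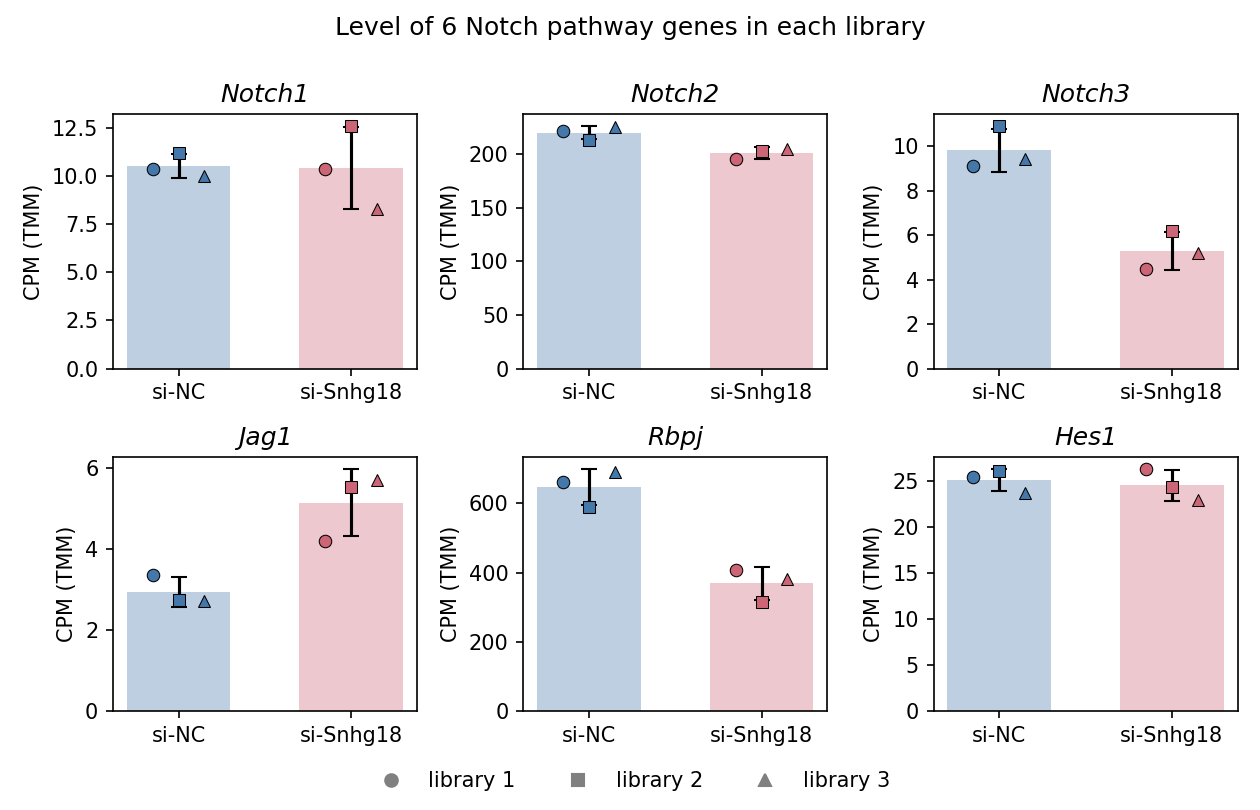
Level of 6 Notch pathway genes in each library, in CPM scaled by TMM. Bars are means of 3 libraries, error bars are SD, and symbols mark libraries 1 to 3. The groups do not overlap for *Rbpj*, *Notch3*, *Jag1* and *Notch2*, and overlap for *Notch1* and *Hes1*. They do not overlap for 30.9% of all tested genes.

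*Notch3* (ENSMUSG00000038146, chromosome 17, 32120820 to 32166852, minus strand) encodes the receptor typical of vascular smooth muscle and pericytes. It was at 9.1, 10.9 and 9.44 CPM in the si-NC libraries and at 4.47, 6.19 and 5.2 CPM in the si-*Snhg18* libraries. The groups were again apart, with the highest si-*Snhg18* value below the lowest si-NC value. *Notch3* fell to 53.9% of the si-NC mean, with a log2 fold change of -0.89 (± 0.17 standard error, edgeR quasi-likelihood adjusted p = 0.0333, and 0.00427 with the block). Same-numbered libraries differed by -1.01, -0.80 and -0.85. The adjusted p of this test became 0.131, 0.115 or 0.129 on leaving out si-NC 1, 2 or 3, and 0.0832 or 0.153 on leaving out si-*Snhg18* 1 or 3, and the log2 fold change stayed between -1.03 and -0.78. The antisense gene *Gm17276*, which overlaps *Notch3*, had 3 to 19 reads per library, and since the strand setting of the counting is not given in the sources used here, reads of such pairs cannot be told apart.

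The 6 listed markers of fibroblasts and pericytes, the latter known to express *Notch3*, summed to between 541 and 581 CPM in si-NC and to between 390 and 471 CPM in si-*Snhg18* libraries, and all 6 had enough reads to be tested, with 0 passing without the block and 3 with it (beside 27.2% of all genes with the block). Most of the sum was *Pdgfra*, with means of 476 and 375 CPM in si-NC and si-*Snhg18* cells. In the same order, the pericyte markers *Cspg4*, *Rgs5* and *Kcnj8* were at 32.3 and 16.4, 1.93 and 1.29, and 1.49 and 0.651 CPM. The fibroblast markers *Lum* and *Dcn* were at 1.28 and 0.94 and at 42.8 and 44.6 CPM. With the block, *Pdgfra*, *Cspg4* and *Kcnj8* were lower (adjusted p = 0.0112, 0.00369 and 0.035, edgeR quasi-likelihood test). The libraries of *Cspg4* overlapped between the groups. The part of these 6 markers in the fall of *Notch3* was not tested. In bulk RNA, fewer cells of a type and less RNA per cell cannot be told apart.

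*Notch2* (ENSMUSG00000027878, chromosome 3, 98013527 to 98150361, plus strand) was the most abundant receptor. It was at 221, 213 and 225 CPM in si-NC and at 195, 203 and 205 CPM in si-*Snhg18* libraries. All si-*Snhg18* values lay below all si-NC values, as in 15.5% of tested genes. The difference was small, with a log2 fold change of -0.13 (95% interval -0.27 to 0.02, edgeR quasi-likelihood adjusted p = 0.253). *Notch1* (ENSMUSG00000026923, chromosome 2, 26457903 to 26516663, minus strand), the founding receptor of the family, was at 10.4, 11.2 and 9.99 CPM against 10.4, 12.6 and 8.32 CPM. Its si-*Snhg18* libraries spread over a wider range that enclosed the si-NC values, and the log2 fold change of -0.01 had an interval of -0.43 to 0.41 (adjusted p = 0.98 from the same test). Its sign changed when si-NC 2 (0.04) or si-*Snhg18* 3 (0.13) was left out, and with library totals (0.00). The gene *0610009E02Rik*, which overlaps *Notch1* on the opposite strand, had 11 to 37 reads per library. As for *Notch3*, reads of this pair cannot be told apart.

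To compare receptors with each other, their levels were divided by exon length, and *Notch4*, a receptor known from endothelium, was included. *Notch2* made up 80.4% ± 2.89 of the summed receptor RPKM in si-NC cells and 78.6% ± 2.96 in si-*Snhg18* cells (SD, n = 3 each, two-sided exact permutation p = 0.5). The share of *Notch3* was 4.4%, 5.15% and 4.54% in si-NC and 2.41%, 3% and 2.67% in si-*Snhg18* libraries, which did not overlap (difference -2 percentage points, two-sided exact permutation p = 0.1, the smallest that 3 against 3 libraries allow). *Notch4* took the second place, with 10.7% ± 2.3 and 14.2% ± 2.18 (SD, n = 3 each, two-sided exact permutation p = 0.2). It was at 16.7, 23 and 15.3 CPM in si-NC and 19, 28.2 and 21.7 CPM in si-*Snhg18* libraries, which overlapped, and its log2 fold change of 0.33 did not pass the test (edgeR quasi-likelihood adjusted p = 0.386). The share of *Notch1* was 4.27% ± 0.222 and 4.51% ± 0.815 (SD, n = 3 each, two-sided exact permutation p = 0.6), and the difference turned to -0.0962 percentage points without si-*Snhg18* 2. Shares were compared in 5 such tests, 4 for receptors and 1 for ligands, none of which could pass 0.05 in this design.

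**Figure D2:**
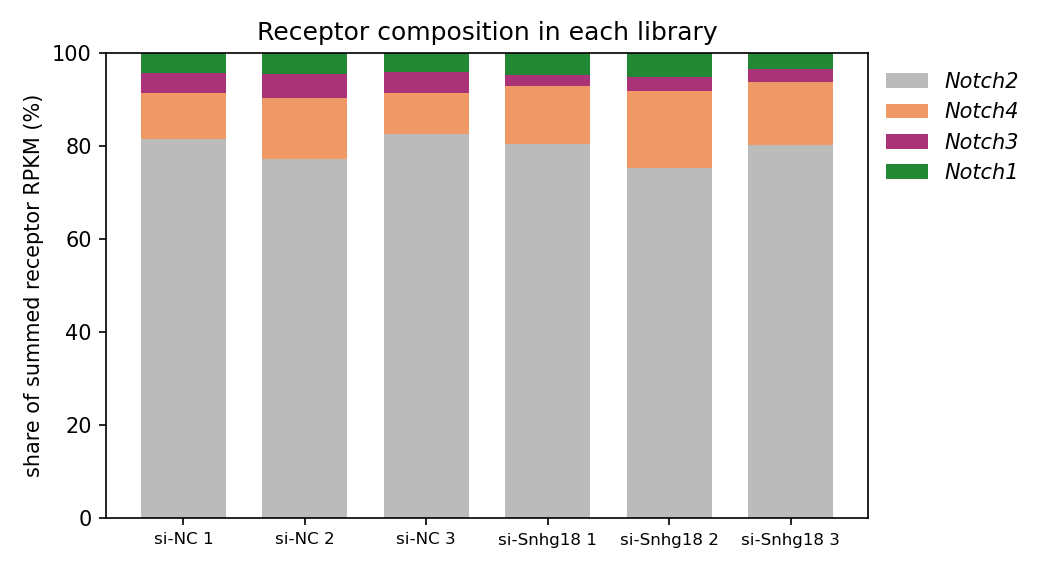
Share of each Notch receptor in the summed RPKM of *Notch1* to *Notch4*, in percent, for each of the 6 libraries. *Notch2* fills 75.2% to 82.5% of each bar, and the band of *Notch3* is narrower in the 3 si-*Snhg18* libraries.

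*Jag1* (ENSMUSG00000027276, chromosome 2, 137081456 to 137116644, minus strand), a membrane ligand that smooth muscle cells and endothelium use to activate Notch on their neighbours, went the other way. It was at 3.36, 2.73 and 2.71 CPM (78, 67 and 64 reads) in si-NC libraries and at 4.19, 5.53 and 5.69 CPM (106, 144 and 104 reads) in si-*Snhg18* libraries. All si-*Snhg18* values were above all si-NC values, as in 15.3% of tested genes, and the mean was 175% of that in si-NC cells. The log2 fold change of 0.81 (standard error 0.21) missed the threshold in the edgeR quasi-likelihood test (adjusted p = 0.0681) and passed it with the block (adjusted p = 0.0343). The pair numbered 1 differed by 0.31, against 0.99 and 1.05 for those numbered 2 and 3. With DESeq2 the adjusted p was 0.0112, and over the edgeR fits that left out 1 library it ranged from 0.0641 to 0.239. The summed endothelial markers overlapped between the groups, and single markers differed in both directions, as given above. Their part in the level of *Jag1* was not tested. *Jag2* (ENSMUSG00000002799, chromosome 12, 112907819 to 112929776, minus strand), the other Jagged ligand, had 1, 8 and 4 reads in si-NC and 4, 4 and 1 reads in si-*Snhg18* libraries, too few to be tested. *Jag1* thus held 93.5% ± 5.11 of the summed Jagged RPKM in si-NC and 97.3% ± 1.49 in si-*Snhg18* cells (SD, n = 3 each, two-sided exact permutation p = 0.3). The Delta-like ligand *Dll1* was at 2.98, 3.18 and 2.92 CPM against 2.49, 1.34 and 2.9 CPM and did not pass the test (log2 fold change -0.44, edgeR quasi-likelihood adjusted p = 0.43), while *Dll3* and *Dll4* had at most 4 and 6 reads in a library.

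Among the target genes, *Hes1* (ENSMUSG00000022528, chromosome 16, 30064384 to 30067796, plus strand), a repressor of the basic helix-loop-helix family and a classical readout of Notch activity, was the only one of the 4 with enough reads. It was at 25.4, 26 and 23.7 CPM in si-NC and at 26.2, 24.3 and 22.9 CPM in si-*Snhg18* libraries, so the groups overlapped. The log2 fold change was -0.03 with a 95% interval of -0.25 to 0.19 (edgeR quasi-likelihood adjusted p = 0.868), and it was 0.01 without si-*Snhg18* 3.

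The HEY genes, a family of repressors that carry Notch signals in heart and vessels, were scarcely present. *Hey1* (ENSMUSG00000040289, chromosome 3, 8663359 to 8667256, minus strand) had 7, 6 and 10 reads in si-NC and 7, 5 and 6 reads in si-*Snhg18* libraries. *Hey2* (ENSMUSG00000019789, chromosome 10, 30832359 to 30842801, minus strand) had 0, 1 and 5 reads against 0, 0 and 1. *Heyl* (ENSMUSG00000032744, chromosome 4, 123233556 to 123249875, plus strand) had a single read, in si-*Snhg18* 3, and its 0 reads in the si-NC libraries allow a level of up to 0.122 to 0.129 CPM. A difference in these 3 genes was not detectable at this depth.

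Ordered by RPKM with the longest transcript in si-NC cells, the genes ran from *Rbpj* over *Notch2* (20.9 ± 0.589) and *Hes1* (17 ± 0.831) to *Notch3* (1.22 ± 0.116), *Notch1* (1.11 ± 0.066) and *Jag1* (0.523 ± 0.0662, all SD, n = 3). *Hey1* (0.133 ± 0.0376), *Jag2* (0.0352 ± 0.0278), *Hey2* (0.033 ± 0.044) and *Heyl* (no read) closed the list. The ranges of *Notch3* and *Notch1* overlapped in si-NC cells, as did those of *Jag2* and *Hey2* and of *Hey2* and *Heyl*. In si-*Snhg18* cells the order of the middle genes was *Notch1* (1.1 ± 0.228), *Jag1* (0.916 ± 0.147) and *Notch3* (0.659 ± 0.108, all SD, n = 3). There the ranges of *Notch1* and *Jag1* overlapped and so did those of *Jag1* and *Notch3*, so that *Jag1*, the lowest of the 3 in si-NC cells, was no longer separated from either neighbour.

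**Figure D3:**
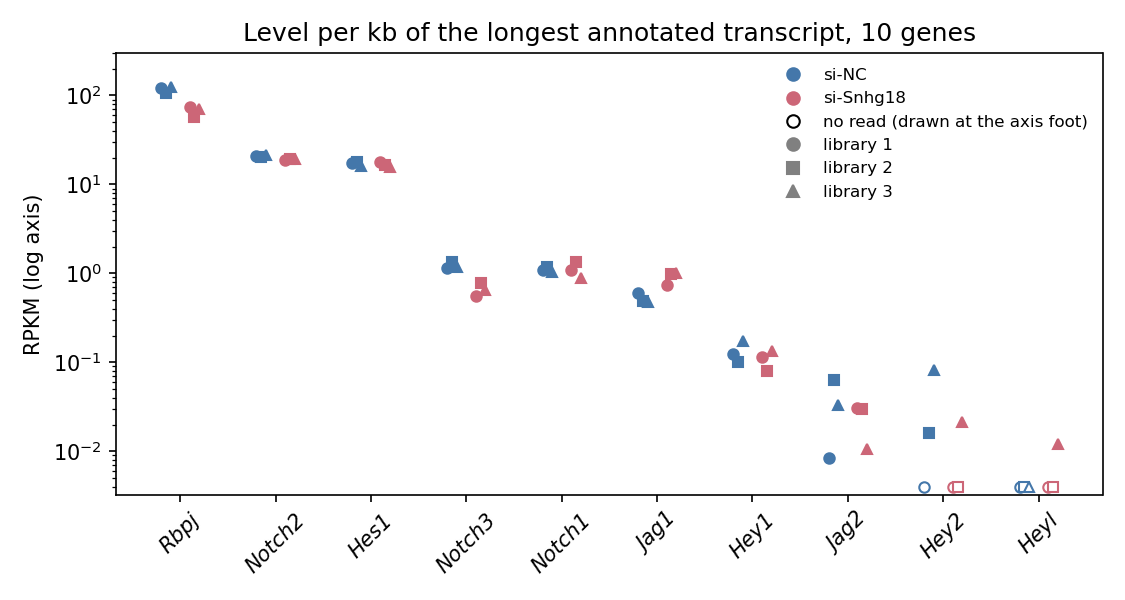
RPKM of the 10 genes in each library on a log axis, with the longest annotated transcript as length. Open symbols at the foot of the axis are libraries with no read. *Rbpj*, *Notch2* and *Hes1* lie at 15.6 RPKM or more and the HEY genes and *Jag2* at 0.175 RPKM or less in each library.

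Among the 6 tested genes, 0 rose and 2 fell without the block, against 3.65% and 3.71% of all tested genes. With the block, 1 was called higher and 2 lower, against 13.6% of all tested genes in each direction. Their median log2 fold change was -0.08, beside 0.01 for all tested genes. The 2 falls were lost without si-NC 1, si-NC 2, si-NC 3 or si-*Snhg18* 3, and 1 remained without si-*Snhg18* 1.

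The genes whose profile over the 6 libraries was most like that of each gene that moved were named by the root mean square difference of centred log2 CPM, over the 11850 genes whose log2 CPM averaged 1 or more. The nearest to *Rbpj* were *Ikbip* (0.03), *Rpl22l1* (0.07) and *B3galnt2* (0.07), set against 0.43 for the spread of *Rbpj* itself about its mean. Those nearest to *Notch3* were *Shroom2* (0.04), *Oaf* (0.04) and *Nanos1* (0.05), beside 0.47 for *Notch3* itself. For *Jag1* they were *Slc22a5* (0.11), *Nudt7* (0.12) and *Nck2* (0.13), with a spread of 0.43 for *Jag1*. None of them belongs to the lists of Notch genes used here.

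A wider list of 67 Notch pathway genes was then described by role. Of these, 57 were tested, 7 rose and 1 fell (12.3% of the tested genes rose, beside 3.65% of all genes). With the block, 16 were called higher and 4 lower (28.1% called higher, beside 13.6% of all genes). The median log2 fold change was 0.11. All of the calls without the block but that of *L3mbtl3* lay close to the threshold, with adjusted p-values of 0.0377 or more. The number that rose was 0 without si-NC 1, si-NC 3 or si-*Snhg18* 3, 1 without si-NC 2 or si-*Snhg18* 1, and 13 without si-*Snhg18* 2, and it was 1 with no filter on low counts. The number that fell was 0 with no filter, with library totals in place of TMM, and without any 1 library other than si-*Snhg18* 2, where it was 5. Apart from *L3mbtl3*, each gene named below as called without the block also passed without si-*Snhg18* 2 and in none of the other 5 such fits, and *Tle3* and *Poglut1* did not pass with library totals.

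The clearest of them was *L3mbtl3* (ENSMUSG00000039089), which encodes a chromatin reader that binds RBPJ and helps to keep Notch targets silent. It was at 12.1, 12.6 and 10.5 CPM in si-NC and at 24.5, 29.8 and 29.6 CPM in si-*Snhg18* libraries. The groups lay far apart, with a mean at 238% of the si-NC level. The log2 fold change was 1.25 (± 0.13 standard error, edgeR quasi-likelihood adjusted p = 0.00771, and 0.000851 with the block), with pair differences of 1.01, 1.23 and 1.48. Its adjusted p in that test was 0.0659 when si-NC 1 was left out, 0.07 for si-NC 3 and 0.0783 for si-*Snhg18* 3. *Rbpj* was lower and *L3mbtl3*, one of its corepressors, higher in each si-*Snhg18* library than in each si-NC library. Groups did not overlap, in either direction, for 30.9% of all tested genes.

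Other corepressors, proteins that hold RBPJ targets off, had smaller fold changes. Of 16 listed, all were tested, 4 rose and 0 fell (25% rose, beside 3.65% of all genes). With the block, 6 were called higher and 0 lower (37.5% called higher, beside 13.6% of all genes). As for the whole wider list, 0 of them rose without si-NC 1, si-NC 3 or si-*Snhg18* 3. Besides *L3mbtl3*, those that rose included the CtBP protein gene *Ctbp1* (log2 fold change 0.40) and the Groucho homologue *Tle3* (0.36). Each had an adjusted p of 0.0447 in the edgeR quasi-likelihood test. *Spen*, which binds RBPJ directly, and *Tle1* did not pass without the block and passed with it (0.39 in each, adjusted p = 0.00704 and 0.00667). *Tle1* also passed with DESeq2 (adjusted p = 0.0176), and *Spen* in the edgeR fit that left out si-*Snhg18* 2 (adjusted p = 0.0249). Among 8 coactivators, the acetyltransferase *Kat2a* rose (0.28, adjusted p = 0.0464 from the same test) and *Crebbp* did not pass without the block but did with it (0.29, adjusted p = 0.0183), while the Mastermind genes *Maml1*, *Maml2* and *Maml3*, which lock the Notch intracellular domain onto RBPJ, had log2 fold changes of -0.09, -0.21 and 0.61 and did not pass in either fit. *Crebbp* also passed when si-*Snhg18* 2 was left out (0.44, adjusted p = 0.0458, edgeR quasi-likelihood test), and its log2 fold change was 0.17 when si-*Snhg18* 1 was. Of the 8 coactivators, 12.5% passed without the block and 25% with it, beside 7.36% and 27.2% of all genes.

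Of 10 genes that cut the receptors, 9 were tested. Without the block 11.1% passed and with it 44.4%, beside 7.36% and 27.2% of all genes. *Adam17*, a protease able to release the Notch ectodomain, rose by 0.42 on the log2 scale (edgeR quasi-likelihood adjusted p = 0.0377), whereas *Adam10*, the main such protease in ligand-induced cleavage, had 0.11 (adjusted p = 0.439). *Furin*, which cuts the precursor in the secretory pathway, and the γ-secretase subunit *Ncstn* were called higher with the block and not without it (0.51 and 0.22, adjusted p = 0.00369 and 0.0256), and the subunit *Aph1b* lower (-0.44, adjusted p = 0.0248). With DESeq2, *Ncstn* and *Aph1b* passed as well (adjusted p = 0.0185 and 0.015). When si-*Snhg18* 2 was left out, *Furin* (0.72, adjusted p = 0.0268) and *Aph1b* (-0.50, adjusted p = 0.0322) passed in the edgeR test, and *Furin* was at 0.35 when si-*Snhg18* 1 was left out. *Aph1c* had too few reads.

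Enzymes that glycosylate the receptors moved in both directions. Of 6 listed, 5 were tested, and 40% passed in each fit, beside 7.36% of all genes without the block and 27.2% with it. *Poglut1*, which adds glucose to the EGF repeats of Notch, fell by 0.47 on the log2 scale (edgeR quasi-likelihood adjusted p = 0.041), and the fringe gene *Rfng* rose by 0.39 (adjusted p = 0.0422). *Mfng* had at most 3 reads in a library. Among 12 regulators of endocytosis and turnover, 11 were tested. Of these, 36.4% passed with the block, beside 27.2% of all genes, and 0 passed without the block. With it, *Itch* (0.22), *Fbxw7* (0.50), which encode ubiquitin ligases that act on Notch, and *Dtx4* (0.73, with si-*Snhg18* 2 at 70.4 CPM and the other libraries between 15.2 and 35.3 CPM) were higher in that fit, with adjusted p-values of 0.0346, 0.0263 and 0.0157, and *Numbl*, a relative of the Notch inhibitor *Numb*, was lower (-0.53, adjusted p = 0.00767). Without the block, *Dtx4* was at 0.83, which became 0.13 when si-*Snhg18* 2 was left out and 1.30 when si-NC 2 was (adjusted p = 0.827 and 0.29, edgeR quasi-likelihood test). *Fbxw7* also passed with DESeq2 (adjusted p = 0.0228), and *Fbxw7* and *Numbl* in the edgeR fit that left out si-*Snhg18* 2 (adjusted p = 0.0407 and 0.00913). *Dtx1* had too few reads to be tested.

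Of the 9 genes listed as other targets, 4 were tested and 0 passed without the block. With it, 50% of them passed, beside 27.2% of all genes. Whether each of the 9 is driven by Notch in these cells was not tested. The direct target *Nrarp* had at most 7 reads in a library, *Hes5* had none, *Hes2* and *Hes3* had at most 1 and *Hes7* at most 9. *Hes6*, which counteracts *Hes1*, was at 21.8 CPM in si-NC and 36.3 CPM in si-*Snhg18* cells, and the smooth muscle myosin gene *Myh11* at 18.6 and 12.2 CPM. Neither passed without the block, and both passed with it, at log2 fold changes of 0.66 and -0.67 (adjusted p = 0.0186 and 0.0207, edgeR quasi-likelihood test). Without the block, *Hes6* was at 0.74 and *Myh11* at -0.60. Leaving out si-*Snhg18* 2 gave 1.05 and -1.05 (adjusted p = 0.0189 and 0.0132, edgeR quasi-likelihood test), whereas *Hes6* was at 0.41 when si-*Snhg18* 1 was left out and *Myh11* at -0.39 when si-*Snhg18* 3 was. *Pdgfrb* and *Acta2*, genes that Notch can activate in smooth muscle, had log2 fold changes of -0.18 and -0.22 (adjusted p = 0.665 and 0.594 without the block).

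**Figure D4:**
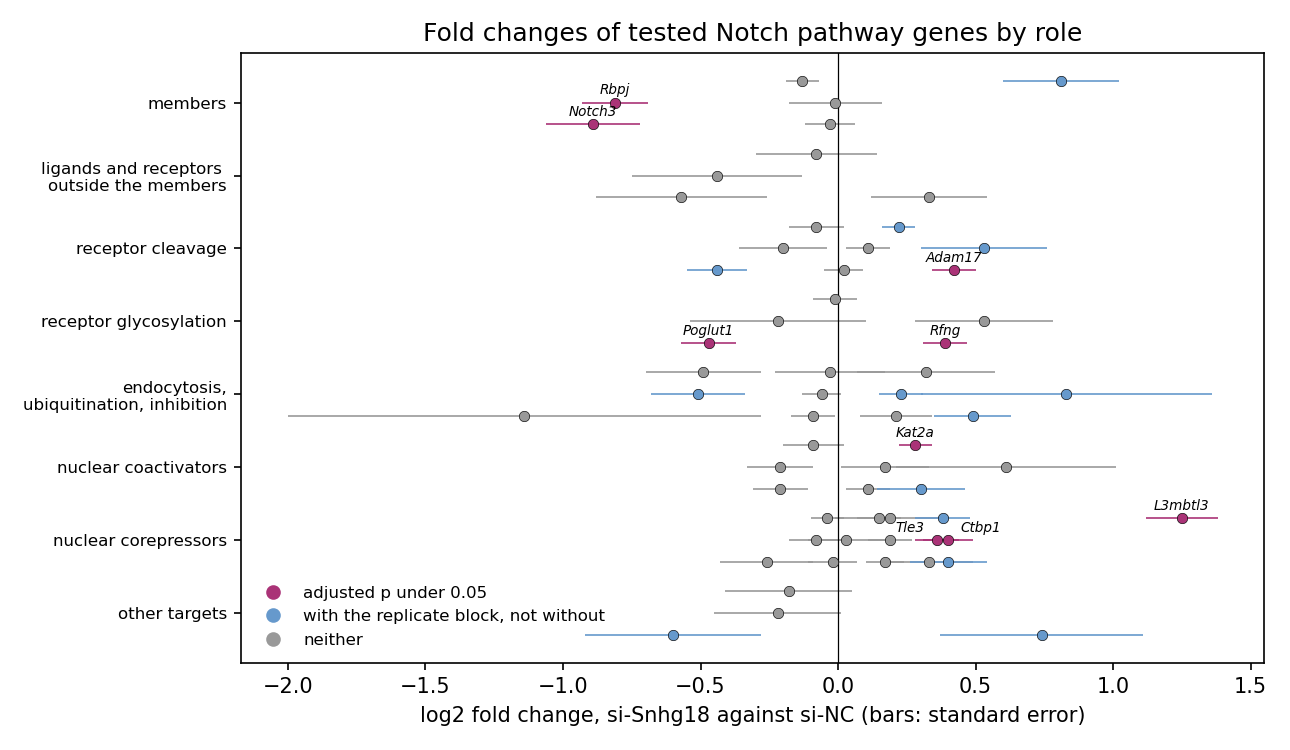
Log2 fold change of si-*Snhg18* against si-NC, with standard error, for the 6 tested members and the tested genes of the wider list that are reported here, grouped by role. Purple points have an adjusted p under 0.05, blue points have it with the replicate block but not without, and grey points in neither of these 2 fits. *Rbpj* (-0.81) and *Notch3* (-0.89) lie to the left and *L3mbtl3* (1.25) furthest to the right.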

How the data were processed

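RNA from 3 si-NC and 3 si-*Snhg18* mPASMC libraries had been sequenced as TruSeq Stranded mRNA libraries. The authors deposited raw read counts per gene with exon lengths in bases and positions on GRCm38.p6. HISAT2 and mm10 are named in the submitters' processing notes, and the counting program and strand setting are not given in the sources used here. Groups and replicate numbers came from the sample titles, and columns headed NC were matched to them by name and repeat number. The knockdown columns are headed siH18, which does not hold the gene's symbol, and were matched as the other group with the same repeat numbers.

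The count table was read into edgeR 4.0.16 (R 4.3.3), where filterByExpr with a minimum count of 10 chose the genes to test and TMM set the scaling, and glmQLFTest compared the groups, with adjusted p-values by Benjamini-Hochberg over all 14531 tested genes. log2 CPM carried a prior count of 2. Intervals of log2 fold changes are 95% intervals from the standard error and the total degrees of freedom of the fit. Single values were tested by exact permutation, which cannot go below 0.1 here. The members and gene lists were chosen with earlier results of these data known. Named genes were the members, *Snhg18*, wider-list genes that passed with or without the block or were not tested, up to 2 markers per list, pseudogenes named after a member and the 3 nearest profiles of each member that passed. *Dll1*, *Notch4*, *Adam10*, the Mastermind genes, *Numb*, *Gm17276*, *0610009E02Rik*, *Pdgfrb* and *Acta2* were added after their values had been seen. So were the markers *Cdh5*, *Tek*, *Kdr*, *Vwf*, *Esam*, *Erg*, *Cnn1*, *Des*, *Lmod1*, *Smtn*, *Cd14*, *Lum*, *Rgs5*, *Cspg4* and *Kcnj8*.

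Deviations from group means correlated between same-numbered libraries at r = 0.41, 0.742 and 0.359 across genes, so blocked values are given. This pairing comes from the repeat numbers in the titles. The alternatives were RLE factors, library totals, DESeq2 1.42.0, limma-voom (limma 3.58.1), 2 other filters, the block and leaving out each library. The use of the longest GENCODE M21 transcript as length was chosen after seeing the data. The quasi-likelihood fits were tested on simulated data that held no replicate effect. That test cannot judge the fits for data in which same-numbered libraries correlate, as they do here. Some genes of the wider list enter the counts but are not reported here by name. Protein sequences were not used here. Promoter sequences are from RefSeq on GRCm38.p6.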

Additional observations from a re-analysis of the deposited data

How the results depend on the processing

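The falls of *Rbpj* and *Notch3* kept their direction under all alternatives and an adjusted p under 0.05 under each that used all 6 libraries. *Snhg18* stayed between -1.14 and -1.06 when each library was left out. Genes called higher and lower over all tested genes numbered 1072 and 1052 with DESeq2 and 1982 and 1972 with the replicate block, and each ranged from 0 to 1545 and from 0 to 1737 when 1 library was left out. Of the members, 1 was called higher with DESeq2 and 1 with the replicate block, and without 1 library 0 were higher in each fit and 0 to 2 lower. Apart from *Jag1*, the replicate block changed no call among the members. The wider list gave 16 higher and 4 lower with the block, 3 lower with DESeq2, 1 higher and 0 lower without a filter, 0 lower with library totals, and 0 to 13 higher and 0 to 5 lower without 1 library. *Notch1* was at 0.00 with library totals and between -0.17 and 0.13 without 1 library, and *Hes1* between -0.08 and 0.01. Without 1 library, the difference in receptor share lay between -0.0962 and 0.694 percentage points for *Notch1*, -3.42 and -0.0682 for *Notch2* and -2.16 and -1.78 for *Notch3* and 2.32 and 4.84 for *Notch4*, and that of *Jag1* among Jagged ligands between 1.25 and 6.35. For *Notch3* it was -1.6 in shares of counts not divided by length. *Rbpj* was at 118 RPKM with the longest transcript, because that length is larger. The cause of the other differences was not tested. The depth left 4 of the 10 genes untested.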
